A study of Homo sapiens and Mus musculus with 16 samples.

Results

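Baseline miRNAs were compared between a human line, SK-HEP-1, and a mouse line, BNL CL.2. The study describes SK-HEP-1 as hepatocellular carcinoma and BNL CL.2 as normal liver, and used BNL CL.2 as its control. The libraries used were the 4 untreated miRNA libraries sequenced on the SOLiD 5500xl, 2 from each line, of 16 libraries in the series. They were taken by their labels: untreated (U), SK-HEP-1 or BNL CL.2, 5500xl sequencer. Untreated cells received the solvent DMSO alone. Treated cells, used here only where named, received 0.5 mg/ml of an ethanol extract of Antrodia cinnamomea fruiting bodies. The labels give 0.5 mg/ml for untreated libraries too, but the study states it as the dose of the extract and gives no DMSO concentration. Both lines were cultured in DMEM with 10% FBS, and cells of each were harvested at 2 hr (2U) and at 4 hr (4U). The 2 libraries of a line were therefore different time points, and no label says that they came from separate cultures. They were used as replicates of the line, so the tests measured the spread between time points and libraries. Species, tumor or normal origin, culture and library set differed together between the lines and cannot be told apart. The labels and the library statistics of the study place the BNL CL.2 libraries on the 5500xl, whereas the description of the series names the SOLiD 3 for them.

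miRNAs are short RNAs cut from hairpin precursors first by Drosha and then by Dicer. One arm of the hairpin is usually kept by an Argonaute protein, and the arm marked with an asterisk in these names is the one first seen at the lower level. The seed, bases 2 to 8 from the 5′ end, pairs with target mRNAs, and miRNAs with the same seed form a family. In liver, miR-122 is the defining miRNA of hepatocytes. In many cultured and tumor cells, miR-21 and the miR-17-92 cluster are known for promoting growth, and the let-7 family for holding it back.

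Levels are given as RPM, reads per 1000000 reads assigned to miRNAs in the same library. The deposited miRNA counts of SK-HEP-1 summed to 683662 (2U) and 534829 (4U) reads, those of BNL CL.2 to 670185 and 908542. For both BNL CL.2 libraries, and less so for 4U of SK-HEP-1, the library statistics of the study list more reads mapped to miRBase than these sums. RPM and shares here are of the deposited sums. On the mapped totals those of BNL CL.2 would be lower relative to SK-HEP-1. Scaling to those totals was added as an alternative after seeing the data. It moved the median log2 difference (SK-HEP-1 minus BNL CL.2) over the tested miRNAs from 0.94 to 1.54. The smallest count listed above 0 was 2, so 1 read may lie behind a listed 0. A count of 0 allows up to 3 reads, or 3.30 to 5.61 RPM in these libraries. This limit covers counting error only, as PCR copies carried no molecular identifier. The 10 most abundant names took 71.0 to 73.6% of the SK-HEP-1 miRNA reads and 80.8 to 82.7% of those of BNL CL.2, so RPM of the other miRNAs depend on a few names.

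The SK-HEP-1 table listed 284 names and the BNL CL.2 table listed 305, of which 136 occurred in both after the species prefix was removed. Of these, 128 averaged 10 RPM or more in the 4 libraries and were tested, and 8 did not. The 136 shared names held only 38.6 to 54.7% of the SK-HEP-1 reads and 39.5 to 43.8% of the BNL CL.2 reads, because some abundant miRNAs carry different names in the 2 tables. When 25 pairs of such names were added (miR-125b and miR-125b-5p, for example), the shares were 68.5 to 78.5% and 90.0 to 90.9%. In the SK-HEP-1 table miR-103a and miR-103b had identical counts in all 8 SK-HEP-1 libraries, treated and SOLiD 3 libraries included. The sequences of miR-103a and miR-103b are exact reverse complements over 23 bases, and the reads behind them cannot be told apart in these counts. Since miR-103b alone took 188665 (2U) and 97872 (4U) RPM, every other SK-HEP-1 value would be higher if it were left out.

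The sequences that carry most of the reads, and the closest relatives on which the comparison turns, are shown by family with the seed in capitals. They are human RefSeq miRNAs, since the sequence table used here holds human entries, and names in the mouse table were given the human sequence of the same name.
miR-125b: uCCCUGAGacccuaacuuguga
miR-125a-5p: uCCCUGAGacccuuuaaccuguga
miR-100: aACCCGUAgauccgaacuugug
miR-99a: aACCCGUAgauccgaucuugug
miR-99b: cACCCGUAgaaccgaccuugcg
miR-103a: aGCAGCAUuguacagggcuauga
miR-103b: uCAUAGCCcuguacaaugcugcu
miR-29a: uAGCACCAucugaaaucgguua
miR-29b: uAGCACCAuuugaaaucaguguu
miR-23a: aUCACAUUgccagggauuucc
miR-23b: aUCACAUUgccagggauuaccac
let-7a: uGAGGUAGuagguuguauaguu
let-7f: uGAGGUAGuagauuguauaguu
let-7g: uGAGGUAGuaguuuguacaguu
miR-19a: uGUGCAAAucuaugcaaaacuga
miR-19b: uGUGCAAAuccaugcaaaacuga
miR-21: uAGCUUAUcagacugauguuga
miR-31: aGGCAAGAugcuggcauagcu
miR-182: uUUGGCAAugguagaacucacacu

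Within a family the differences lie outside the seed. Counted from 1 at the 5′ end, miR-23a and miR-23b differ by U19A, miR-19a and miR-19b by U11C, let-7f and let-7a by A12G, and miR-100 and miR-99a by A16U. miR-29a and miR-29b differ at 4 positions of their shared length, as do miR-100 and miR-99b. Reads of pairs that differ by 1 base could be assigned to either member, so their split is uncertain and their sum is more secure.

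Some of the miRNAs that filled the libraries led in both lines, in different proportions, and others led in only 1 line. miR-125b, a family long studied in differentiation, reached 100588 and 132685 RPM in SK-HEP-1, and its counterpart miR-125b-5p reached 357671 and 377448 RPM in BNL CL.2. Both BNL CL.2 libraries were above both SK-HEP-1 libraries, 3.15-fold in the means. A fit with renamed miRNAs added and miR-103b left out of the SK-HEP-1 totals was chosen after seeing the data. In it the log2 difference (SK-HEP-1 minus BNL CL.2) was -1.44 (SE 0.24, edgeR quasi-likelihood adjusted p = 0.0172). RPM and fold values keep miR-103b in the total, so log2 differences of that fit lie higher than the folds give. miR-103a in SK-HEP-1 (188665 and 97872 RPM) and miR-103 in BNL CL.2 (94059 and 109834 RPM) overlapped between the lines. Leaving miR-103b out of the SK-HEP-1 total, miR-103a was 23.3% (2U) and 10.8% (4U) of it.

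Other leading miRNAs were abundant in 1 line and low or not listed in the other. miR-31, known as a regulator of invasion in tumors, was at 73166 and 91876 RPM in BNL CL.2, and the SK-HEP-1 tables of neither sequencer list it. The human hairpin lies at chr9:21512114-21512184 (GRCh37, minus strand) in an intron of the lncRNA gene MIR31HG. miR-100 was at 83816 and 66604 RPM in SK-HEP-1, and the BNL CL.2 table lists only miR-100*, at 0 in both libraries. Its human hairpin lies at chr11:122022937-122023016 (minus strand) in an intron of the lncRNA gene MIR100HG, which also holds MIRLET7A2 and MIR125B1. A name missing from a table is not a measured 0.

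**Figure D1:**
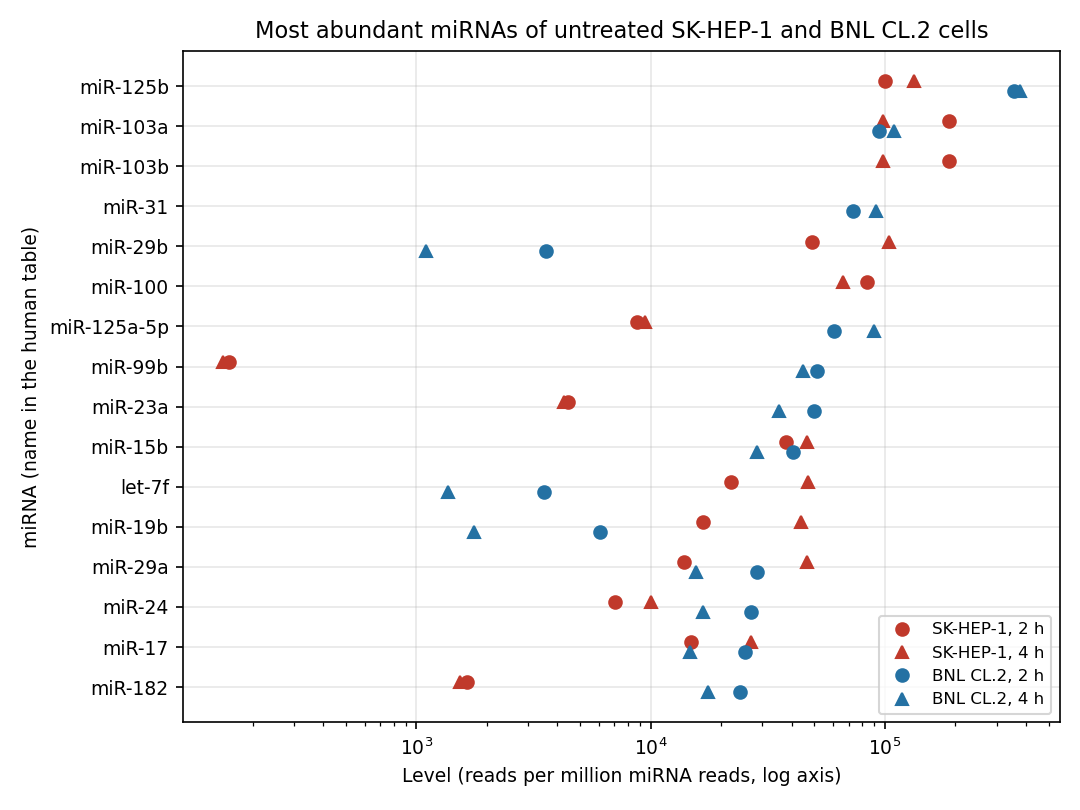
Level of the most abundant miRNAs in the untreated 5500xl libraries, in RPM on a log axis, with 1 point per library (red for SK-HEP-1, blue for BNL CL.2, circles for 2 hr, triangles for 4 hr). The miR-125b and miR-99b points lie higher in both BNL CL.2 libraries and those of miR-29b in both SK-HEP-1 libraries, and a line without points for a name does not list it.

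Grouped by seed, 1 family dominated BNL CL.2. Each share sums only the names listed for that line, so a missing name adds nothing to it. The seed CCCUGAG of miR-125a-5p and miR-125b took 41.83 and 46.70% of the BNL CL.2 reads, against 10.93 and 14.22% of the SK-HEP-1 reads. The seed UCACAUU of miR-23a and miR-23b took 6.84 and 4.96% in BNL CL.2 and 0.49 and 0.45% in SK-HEP-1. Both seeds were higher in both BNL CL.2 libraries than in either SK-HEP-1 library.

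The seeds of miR-29, let-7 and miR-19 were the reverse. AGCACCA (miR-29) took 6.36 and 15.19% of the SK-HEP-1 reads and 3.21 and 1.68% of the BNL CL.2 reads. The seed GAGGUAG (let-7) took 4.38 and 8.99% against 1.83 and 2.12%, and GUGCAAA (miR-19) took 2.08 and 5.89% against 0.64 and 0.18%. All 3 were higher in both SK-HEP-1 libraries, with the 4U library above 2U each time. The seed ACCCGUA of miR-99 and miR-100 took 8.41 and 6.70% against 5.14 and 4.46%. Its members differed: miR-100 supplied nearly all of it in SK-HEP-1 and miR-99b in BNL CL.2. The BNL CL.2 table lists neither miR-100 nor miR-99a, so these shares cover different names and cannot be compared. The seed AAAGUGC of miR-17 and miR-20a overlapped between the lines, at 2.81 and 4.46% against 2.87 and 1.495%.

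Of the 128 miRNAs tested, 27 (21.1%) passed an adjusted p of 0.05 in edgeR's quasi-likelihood test. Of these, 18 (14.1%) were higher in SK-HEP-1 and 9 (7.03%) higher in BNL CL.2. The libraries of the lines did not overlap for 89 miRNAs (69.5%), with SK-HEP-1 above for 54 (42.2%) and BNL CL.2 above for 35 (27.3%). With 2 libraries against 2, an exact permutation test of a single miRNA cannot pass 0.05, so calls rest on the spread shared across miRNAs. For the same reason, the libraries of a single miRNA can often fail to overlap with no difference between the lines. The median log2 difference over the tested miRNAs was 0.94, so a miRNA of equal RPM in both lines stands below the typical miRNA in SK-HEP-1.

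The spread within a line was large. Between 2U and 4U the absolute log2 ratio had a median of 0.89 in SK-HEP-1 and 0.81 in BNL CL.2, and 19 of 121 and 16 of 117 miRNAs above 0 in both libraries were at least 4-fold apart. Between the lines the median was 1.74 at 2 hr and 2.30 at 4 hr, with 54 of 121 and 62 of 112 at least 4-fold apart. Across the tested miRNAs, Pearson's r of log2(RPM + 1) was 0.805 within SK-HEP-1, 0.882 within BNL CL.2 and 0.481 to 0.583 between the lines. These correlations are across miRNAs, which are not independent replicates, and the libraries of a line also share a table.

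**Figure D2:**
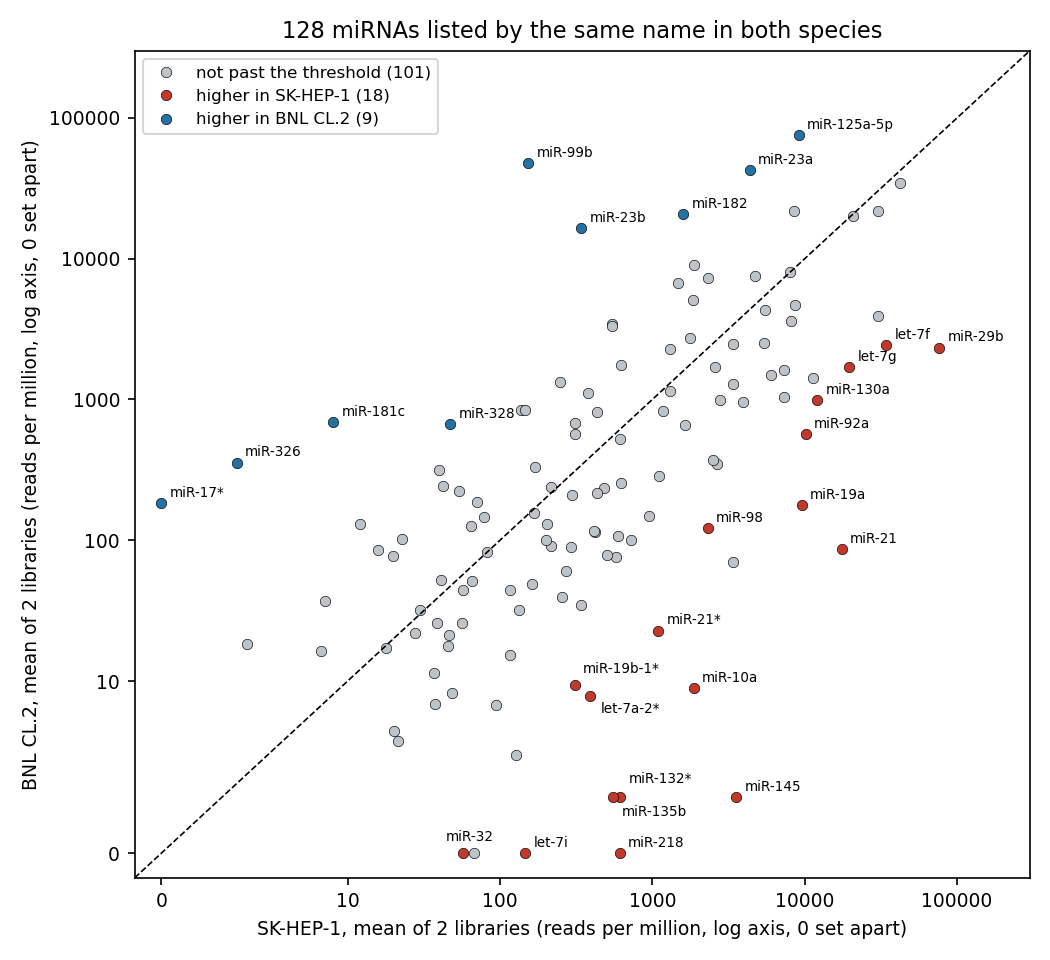
Mean level of the 128 tested miRNAs in SK-HEP-1 (x axis) and BNL CL.2 (y axis), in RPM on log axes with 0 set apart, with the 27 that passed the edgeR test coloured and named. The 9 higher in BNL CL.2, such as miR-99b, lie above the dashed line of equal level and the 18 higher in SK-HEP-1, such as miR-29b and miR-21, below it.

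The scaling set the balance of the calls. With TMM factors 8 were higher in SK-HEP-1 and 8 in BNL CL.2, with a median log2 difference of 0.45. With DESeq2 size factors the split was 11 and 11, with a median of 0.42. Scaled to all quality reads of the library rather than to miRNA reads, it was 7 and 28, with a median of -0.96. Scaled to the reads mapped to miRBase that the study lists, it was 30 and 9, with a median of 1.54, and all 27 calls were kept. Without either SK-HEP-1 library, 0 miRNAs passed edgeR's test (53 at an unadjusted p under 0.05 without 2U and 39 without 4U), whereas without the 2U or the 4U library of BNL CL.2, 36 and 31 passed. No other tool was run without a library.

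The miRNAs higher in BNL CL.2 included members of the miR-99 and miR-125 families and of the miR-23 clusters. miR-99b, which is known to target mTOR, was at 158 and 149.6 RPM in SK-HEP-1 and at 51362 and 44556 RPM in BNL CL.2. Both BNL CL.2 libraries were far above, 312-fold in the means, with a log2 difference of -8.28 (SE 0.63, edgeR adjusted p = 0.000734). miR-125a-5p, from the same human locus, was at 8744 and 9485 RPM in SK-HEP-1 and at 60615 and 89531 RPM in BNL CL.2. It was high in both lines and 8.24-fold higher in BNL CL.2 without overlap (log2 difference -3.04, SE 0.45, edgeR adjusted p = 0.00937).

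In the human genome (GRCh37) MIR99B lies at chr19:52195865-52195934, MIRLET7E at chr19:52196039-52196117 and MIR125A at chr19:52196507-52196592, all on the plus strand. The first 2 are in an intron and the last is in an exon of the protein-coding gene SPACA6. The neighbor let-7e was at 117 and 381 RPM in SK-HEP-1 and at 11.9 and 2659 RPM in BNL CL.2. It overlapped between the lines and was not called (log2 difference -2.42, edgeR adjusted p = 0.385), and neither were the other arms miR-99b*, let-7e* and miR-125a-3p (edgeR adjusted p of 0.160, 0.212 and 0.0513). At this locus 2 of the 6 mature miRNAs tested were called higher in BNL CL.2, against 7.03% of all 128. The locus is described because of these 2 calls, so its share cannot be compared with that of all 128.

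miR-23a and miR-23b, which are processed from separate clusters with miR-24 and miR-27, were both higher in BNL CL.2. miR-23a was at 4451 and 4259 RPM in SK-HEP-1 and at 49688 and 35481 RPM in BNL CL.2. miR-23b was at 408 and 273 RPM against 18709.8 and 14153 RPM. In both cases the BNL CL.2 libraries lay above without overlap, 9.78-fold for miR-23a (log2 difference -3.29, SE 0.52) and 48.3-fold for miR-23b (-5.59, SE 0.77), each at an edgeR adjusted p of 0.00937. The human hairpins are MIR23A at chr19:13947401-13947473, in an exon of the lncRNA gene MIR23AHG, and MIR23B at chr9:97847490-97847586, in an intron of the protein-coding gene AOPEP.

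Their cluster partners did not all follow. miR-27a, known in adipocyte and muscle differentiation, was at 6588 and 8003 RPM in SK-HEP-1 and at 2156 and 1058 RPM in BNL CL.2. It was thus higher in both SK-HEP-1 libraries but not called (log2 difference 2.18, SE 0.78, edgeR adjusted p = 0.0812). miR-24 was at 7021 and 10079.9 RPM against 26887 and 16666 RPM, also without overlap and not called (log2 difference -1.35, edgeR adjusted p = 0.140). miR-27b overlapped, at 196 and 237 RPM against 333 and 144 RPM. The difference between partners was not tested.

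miR-182, of the cluster with miR-183 and miR-96 that is expressed in sensory epithelia and many tumors, was at 1651 and 1531 RPM in SK-HEP-1 and at 24117 and 17574 RPM in BNL CL.2. It was 13.1-fold higher in BNL CL.2 (log2 difference -3.71, SE 0.64, edgeR adjusted p = 0.0122). miR-183 (433 and 653 RPM against 3982 and 2938 RPM) and miR-96 (765 and 325 RPM against 4555 and 2084 RPM) also lay higher in both BNL CL.2 libraries and missed the threshold, with edgeR adjusted p of 0.0738 and 0.0930. The human hairpins MIR182, MIR96 and MIR183 lie within a few kilobases of each other on chr7, at 129410223-129410332, 129414532-129414609 and 129414745-129414854.

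The other 4 miRNAs called higher in BNL CL.2 stayed below 1000 RPM. miR-181c was at 2.93 and 13.1 RPM in SK-HEP-1 and at 801 and 578 RPM in BNL CL.2 (86.1-fold, log2 difference -6.42, SE 1.24, edgeR adjusted p = 0.0144). miR-328 was at 43.9 and 50.5 RPM against 574 and 759 RPM (14.1-fold, log2 difference -3.82, SE 0.93, edgeR adjusted p = 0.0303). Neither overlapped between the lines. miR-326 was at 0 and 3.74 RPM in SK-HEP-1, which is 2 reads in all, and at 369 and 342 RPM in BNL CL.2, a ratio of 215 with a 95% exact counting interval of 59.3 to 1783 (edgeR adjusted p = 0.0144). miR-17*, the lower arm of miR-17, was at 0 in both SK-HEP-1 libraries and at 339 and 26.4 RPM in BNL CL.2. It was at least 36.5-fold higher in BNL CL.2 (edgeR adjusted p = 0.0331), but the SOLiD 3 libraries of untreated SK-HEP-1 had it at 255 and 227 RPM, and with those libraries the log2 difference was 0.40 (adjusted p = 0.803).

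The miRNAs higher in SK-HEP-1 included miR-29b, members of the let-7 family and of the miR-17-92 cluster, miR-21 and several miRNAs close to 0 in BNL CL.2. miR-29b, known to lower collagen mRNAs, was at 49081 and 103955 RPM in SK-HEP-1 and at 3568 and 1101 RPM in BNL CL.2. It was 32.8-fold higher (log2 difference 5.03, SE 0.80, edgeR adjusted p = 0.00937). miR-29a, with the same seed, was at 13893 and 46722 RPM against 28353 and 15566 RPM. It overlapped between the lines and was not called (log2 difference 0.46, edgeR adjusted p = 0.619), with the sign reversed under 3 other scalings. The difference between the members was not tested.

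In the let-7 family, 5 of 12 tested miRNAs were called, all higher in SK-HEP-1 (18 of all 128, or 14.1%, were called in that direction). let-7f was at 22005 and 46800.0 RPM against 3508 and 1360.4 RPM (14.1-fold, log2 difference 3.82, SE 0.76, edgeR adjusted p = 0.0144). let-7g was at 14086 and 25202 RPM against 2455 and 941 RPM (11.6-fold, log2 difference 3.53, SE 0.79, edgeR adjusted p = 0.0239). miR-98, which shares the let-7 seed, was at 3174 and 1432 RPM against 181 and 63.8 RPM (18.8-fold, log2 difference 4.24, SE 1.10, edgeR adjusted p = 0.0357). For these 3 both SK-HEP-1 libraries lay well above both BNL CL.2 libraries.

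The remaining called members of the family were lower in level. let-7i was at 257 and 35.5 RPM in SK-HEP-1 and listed at 0 in both BNL CL.2 libraries, a difference of at least 37.7-fold (edgeR adjusted p = 0.0255). The passenger arm let-7a-2* was at 560.2 and 219 RPM against 8.95 and 6.6 RPM (50.1-fold, log2 difference 5.62, SE 1.12, edgeR adjusted p = 0.0144). Some members not called lay the other way without overlap. let-7b was at 151 and 716 RPM against 836 and 794 RPM, let-7d* at 110 and 166 RPM against 777 and 899 RPM, and let-7e* at 26.3 and 13.1 RPM against 52.2 and 103 RPM. let-7a was at 3806 and 12565 RPM against 5088 and 2168 RPM, with overlap. let-7d was at 228 and 2729.8 RPM against 1144 and 12270.2 RPM, with more than a 10-fold gap between time points in each line. let-7a and let-7f differ by 1 base, so the split between them is uncertain.

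The miR-17-92 cluster and its paralogs, known as oncomirs, had 3 called higher in SK-HEP-1 and 1 higher in BNL CL.2 (miR-17*, above) of 10 tested, against 14.1% and 7.03% of all 128. miR-19a was at 4099 and 14984 RPM against 306 and 50.6 RPM (53.5-fold, log2 difference 5.74, SE 1.32, edgeR adjusted p = 0.0255). miR-92a was at 7973 and 12340.4 RPM against 489 and 642 RPM (18.0-fold, log2 difference 4.17, SE 0.79, edgeR adjusted p = 0.0144). Neither overlapped. miR-19b-1* was lower in level, at 178 and 439 RPM against 16.4 and 2.2 RPM (33.2-fold, log2 difference 5.05, SE 1.34, edgeR adjusted p = 0.0384). The main arm miR-19b was not called (log2 difference 2.95, SE 0.85, edgeR adjusted p = 0.0513). miR-19a and miR-19b differ by 1 base, so the split between them is uncertain. miR-17 itself was at 14869.9 and 26831 RPM against 25408 and 14784 RPM, overlapped and was not called (log2 difference 0.05, edgeR adjusted p = 0.956). miR-20a was at 2835 RPM in 2U and 2.2 RPM in 4U of BNL CL.2, against 6028 and 16702 RPM in SK-HEP-1, so members of 1 cluster did not keep a fixed proportion between libraries.

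miR-21, an oncomir whose human hairpin lies at chr17:57918627-57918698 in an exon of VMP1, was at 33863 RPM in 2U and 1032 RPM in 4U of SK-HEP-1. The BNL CL.2 libraries had 124 and 49.5 RPM. Both SK-HEP-1 libraries were above, 201-fold in the means, but the 2 differed from each other more than 30-fold (log2 difference 7.65, SE 1.82, edgeR adjusted p = 0.0279). Its other arm miR-21* was at 2029 and 151 RPM against 31.3 and 14.3 RPM, high in the same library (log2 difference 5.57, SE 1.55, edgeR adjusted p = 0.0463). The SOLiD 3 libraries of untreated SK-HEP-1 had miR-21 at 6452 and 1313 RPM, again with 2U above 4U.

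miR-130a, which is known in blood vessel growth, was steady within each line. It was at 12808 and 11420.5 RPM in SK-HEP-1 and at 1173 and 818 RPM in BNL CL.2 (12.2-fold, log2 difference 3.61, SE 0.72, edgeR adjusted p = 0.0144). miR-10a, encoded within a HOX gene cluster, was at 2753 and 993 RPM against 13.4 and 4.4 RPM (210.1-fold, log2 difference 7.71, SE 1.34, edgeR adjusted p = 0.0122). In the SOLiD 3 libraries of SK-HEP-1 miR-10a was at only 56.7 and 0 RPM.

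The miRNAs miR-145, miR-218, miR-132*, miR-135b and miR-32 were at 0 or at 2 reads in BNL CL.2. miR-145, enriched in smooth muscle and fibroblasts, was at 3274 and 3805 RPM in SK-HEP-1 and at 2.98 and 0 RPM in BNL CL.2. Its ratio was 2768 with a 95% exact counting interval of 766 to 22865 (edgeR adjusted p = 0.00937). miR-218, encoded within SLIT genes, was at 563 and 660.0 RPM against 0 and 0 RPM, at least 157-fold higher (edgeR adjusted p = 0.00937). These SK-HEP-1 levels varied little between libraries.

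miR-132* was at 518 and 714 RPM against 2.98 and 0 RPM, a ratio of 477 (interval 132 to 3944). miR-135b was at 502 and 609.5 RPM against 2.98 and 0 RPM, a ratio of 433 (interval 120 to 3586). Each had an edgeR adjusted p of 0.0144. miR-32 was the lowest, at 27.8 and 86.0 RPM against 0 and 0 RPM, at least 14.6-fold higher (edgeR adjusted p = 0.0316). The SOLiD 3 libraries of SK-HEP-1 also had miR-145, miR-218, miR-132* and miR-135b, at 395 RPM or more in every library, whereas miR-32 was at 5.67 and 3.67 RPM there.

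**Figure D3:**
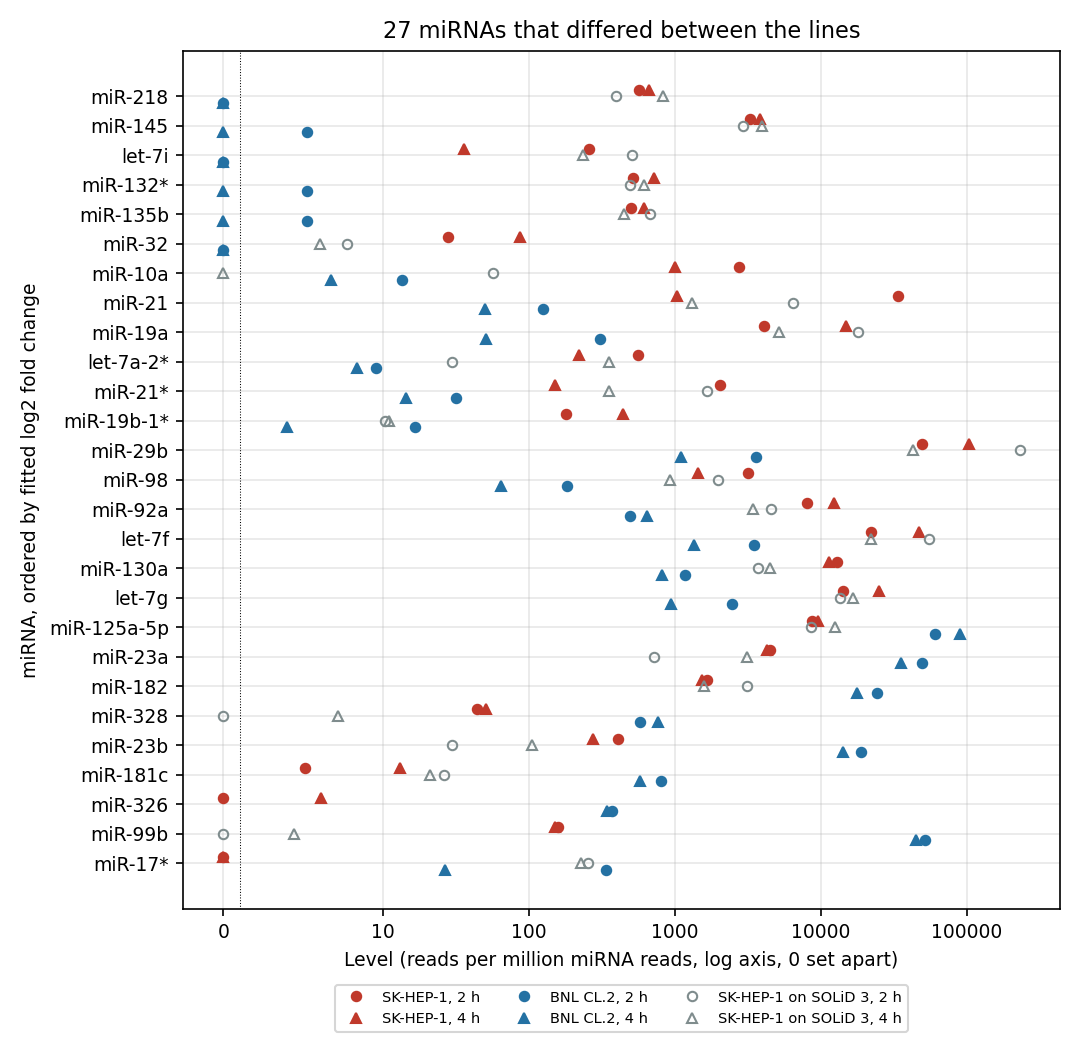
Level of the 27 miRNAs that passed the edgeR test, in RPM on a log axis with 0 set apart, ordered by fitted log2 difference, with 1 filled point per library (red for SK-HEP-1, blue for BNL CL.2) and open points for the SOLiD 3 libraries of SK-HEP-1. The filled points of the lines do not overlap for any of the 27, and the 2 SK-HEP-1 points of miR-21 lie far apart.

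Summed over a list of related miRNAs, all arms and renamed members included, 14 lists reached 1% of the reads in a library, 9 of them higher in the mean in SK-HEP-1 and 5 lower. A name not listed for a line adds nothing to its sum, such as miR-100 and miR-424 in BNL CL.2 or let-7c in SK-HEP-1. The sums of a list can therefore cover different names. The sign held under all 8 scalings for 8 lists. Calls among list members stand against 14.1% called higher in SK-HEP-1 and 7.03% higher in BNL CL.2 over all 128, and with so few members each share is coarse. The let-7 list summed to 45223 and 92115 RPM in SK-HEP-1 and 19738 and 22583 RPM in BNL CL.2, a log2 ratio of the means of 1.70 that became -0.22 when scaled to quality reads. The miR-17-92 list summed to 50130 and 116815 RPM against 35829 and 17447 RPM, a log2 ratio of 1.65 that became -0.31 in the same way. Neither list overlapped between the lines in RPM, and the direction of both depended on that scaling.

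Of the lists with a stable sign, 3 of those lower in SK-HEP-1 are given first. The miR-99/100 and miR-125 list summed to 193487 and 209405 RPM in SK-HEP-1 and 470212 and 512095 RPM in BNL CL.2 (log2 ratio -1.29), with 2 of 5 tested members called, both higher in BNL CL.2. The miR-23/24/27 list summed to 19280 and 22942 RPM against 102758 and 69899 RPM (log2 ratio -2.03), with 2 of 8 called higher in BNL CL.2. The list of miR-183, miR-96 and miR-182 summed to 2849 and 2509 RPM against 32773 and 22654 RPM (log2 ratio -3.37), with 1 of 3 called. All 3 lay higher in both BNL CL.2 libraries, and the sign of the ratio held under all 8 scalings.

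The miR-29 list and the list of miR-130 and miR-301 lay higher in SK-HEP-1 under every scaling. The miR-29 list summed to 64317 and 151985 RPM against 32163 and 16816 RPM (log2 ratio 2.14, and 0.19 scaled to quality reads), with 1 of 5 called. The list of miR-130 and miR-301 summed to 25978 and 18828 RPM against 2210 and 2861 RPM (log2 ratio 3.14, and 1.30 scaled to quality reads), with 1 of 5 called. The list of miR-34 and miR-449 also kept its sign (log2 ratio 2.11). The miR-106b-25 list (log2 ratio 0.52, 0 of 4 called), the miR-15/16 list (0.79, 0 of 5), the miR-30 list (1.45, 0 of 5) and the list of miR-26, miR-103 and miR-107 (0.48, 0 of 6) all changed sign when scaled to quality reads.

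**Figure D4:**
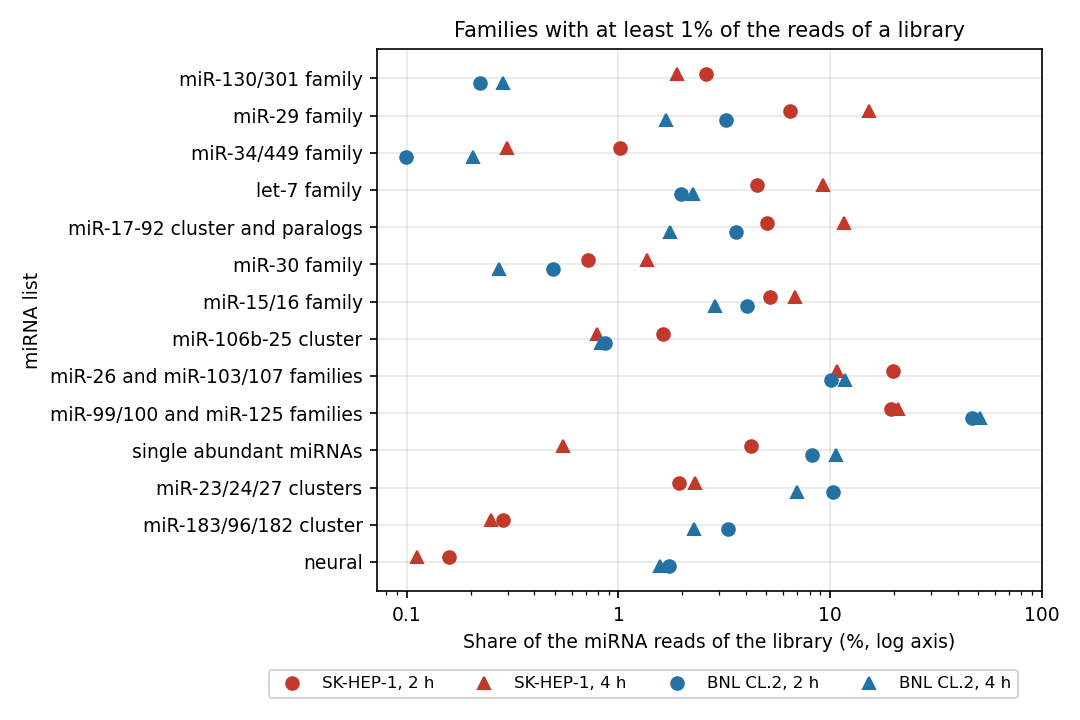
Share of the miRNA reads taken by each of the 14 lists that reached 1% in a library, in percent on a log axis, with 1 point per library (red for SK-HEP-1, blue for BNL CL.2). The lists are ordered by their ratio, from miR-130 and miR-301, higher in SK-HEP-1, to the neural list, higher in BNL CL.2.

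The tissue label of both lines was checked against miRNAs known to mark cell types. miR-122, the defining miRNA of hepatocytes, was at 5.85 and 0 RPM in SK-HEP-1 and at 2.98 and 2.20 RPM in BNL CL.2, near the limit of detection in all 4 libraries. In the SOLiD 3 libraries of SK-HEP-1 it was at 79.4 RPM in 2U and 7.34 RPM in 4U. Of the other hepatocyte-enriched names, miR-192 was at 1515 and 813 RPM and miR-148a at 89.2 and 131 RPM in SK-HEP-1, and the BNL CL.2 table lists neither. Of the 6 hairpins on this list, only miR-122, miR-192 and miR-148a have names in either 5500xl table. miR-192*, named in both tables, was at 2.93 and 11.2 RPM in SK-HEP-1 and at 31.3 and 42.9 RPM in BNL CL.2, higher in the latter without overlap and not called (log2 difference -2.39, edgeR adjusted p = 0.205). The listed names summed to 1613 and 955 RPM in SK-HEP-1 and 34.3 and 45.1 RPM in BNL CL.2, sums over different names that cannot be compared. In the 4 untreated 5500xl libraries the defining miRNA of hepatocytes was thus at or near 0, so this marker did not bear out a hepatocyte label for either line.

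Other markers differed between the lines. The endothelial list, the 2 arms of miR-126, summed to 2261 and 1593 RPM in SK-HEP-1 against 58.2 and 18.7 RPM in BNL CL.2, although the arm named miR-126 in SK-HEP-1 was at 1769.9 RPM in 2U and at 0 in 4U. The fibroblast and smooth muscle list summed to 3282 and 3827 RPM in SK-HEP-1, nearly all of it miR-145, and to 2.98 and 0 RPM in BNL CL.2. Of its 5 hairpins, miR-143, miR-199a, miR-199b and miR-214 are listed for neither line, so it rests on miR-145 alone. Of the epithelial miR-200 family the SK-HEP-1 table lists no member, and BNL CL.2 had 10.4 and 8.81 RPM in all. Muscle and haematopoietic markers were at or below 10.4 RPM in BNL CL.2, and no name of either list is in the SK-HEP-1 table.

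The neural list summed to 1580 and 1120 RPM in SK-HEP-1 against 17407 and 15653 RPM in BNL CL.2, and 1 miRNA made up most of it. miR-9 (314 and 16.8 RPM) and miR-137 (205 and 366 RPM) are listed only in SK-HEP-1. miR-129-2-3p was at 17334 and 15583 RPM in BNL CL.2, and miR-129-3p, its counterpart by name, was at 1044 and 731 RPM in SK-HEP-1. Both BNL CL.2 libraries were above, 18.5-fold in the means (log2 difference -3.97, SE 0.66, edgeR adjusted p = 0.0172 with renamed miRNAs added and miR-103b left out). The SOLiD 3 libraries of SK-HEP-1 had miR-129-3p at 0 and 13.4 RPM. Whether marker levels bear on the other differences between the lines was not tested.

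Among the 24 renamed pairs that passed the filter, 6 were called higher in SK-HEP-1 and 3 higher in BNL CL.2, against 16.4% and 7.89% of all 152 miRNAs of that fit. The fit left miR-103b out of the SK-HEP-1 totals, whereas the RPM and fold values here keep it. miR-34c-5p (miR-34c in BNL CL.2), of the p53-responsive miR-34 family, was at 369 and 740 RPM against 7.46 and 3.30 RPM (103-fold, log2 difference 6.86, SE 1.10, edgeR adjusted p = 0.0172). miR-455-3p (miR-455*) was at 632 and 651 RPM against 13.4 and 3.30 RPM (76.7-fold, log2 difference 6.48, SE 1.17, edgeR adjusted p = 0.0172). miR-126* (miR-126-5p) was at 491 and 1593 RPM against 43.3 and 16.5 RPM (34.9-fold, log2 difference 5.31, SE 1.16, edgeR adjusted p = 0.0297). The groups did not overlap for any of the 3.

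The others called higher in SK-HEP-1 were miR-340, listed at 0 in both BNL CL.2 libraries and at 43.9 and 97.2 RPM in SK-HEP-1, miR-505 and miR-181a*. miR-505 was at 1157 and 61.7 RPM against 0 and 2.20 RPM, and miR-181a* was at 1584 and 196 RPM against 28.4 and 28.6 RPM, so each rested mainly on 2U. miR-140-3p (miR-140* in BNL CL.2), which is abundant in cartilage, was at 13.2 and 28.0 RPM against 333 and 271 RPM, 14.6-fold higher in BNL CL.2 (log2 difference -3.67, SE 0.89, edgeR adjusted p = 0.0380). It joined miR-125b and miR-129-3p as the pairs higher in BNL CL.2.

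Of 123 names listed only for SK-HEP-1 and not among the renamed pairs, 31 reached 100 RPM and 9 reached 1000 RPM. Besides miR-103b and miR-100 these included miR-424, of the miR-15/16 seed family, at 13391 and 20397 RPM. Of 144 such BNL CL.2 names, 15 reached 100 RPM and 5 reached 1000 RPM, among them miR-31, let-7c (5091 and 955 RPM) and miR-24-2* (3985 and 1725 RPM). A human RefSeq hairpin of the same name exists for 72 of the 144, so for these names absence from the SK-HEP-1 table does not mean that the human genome lacks the hairpin. Mouse hairpins were not looked up. Some of the 123 and 144 names may match names that were not paired here, such as let-7a* and let-7a-1*.

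The ratio of the 2 arms of a hairpin does not depend on scaling. Of 35 arm pairs named in both tables, 21 were above 0 in all 4 libraries, and 9 of these (42.9%) did not overlap between the lines. For levels the share was 69.5% of all tested miRNAs, but levels depend on scaling and are a different measure. With so few libraries, a pair can often separate with no difference between the lines. miR-27a over miR-27a* had log2 ratios of 3.53 and 7.21 in SK-HEP-1 and of 1.47 and 0.84 in BNL CL.2. miR-21 over miR-21* had 4.06 and 2.77 against 1.98 and 1.79. In both pairs the same arm led in all 4 libraries, and it led by more in SK-HEP-1. In the SOLiD 3 libraries of SK-HEP-1 the ratio of miR-27a was 2.37 and 3.64, again above BNL CL.2, whereas that of miR-21 was 1.95 and 1.89 and overlapped BNL CL.2.

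For 1 of the 21 pairs the leading arm differed by line. miR-362-5p over miR-362-3p had log2 ratios of 1.52 and 0.16 in SK-HEP-1 and of -1.44 and -1.21 in BNL CL.2, but in the SOLiD 3 libraries of SK-HEP-1 they were -0.18 and 1.18. miR-99b over miR-99b* was at 5.17 and 1 in SK-HEP-1 and at 7.67 and 6.87 in BNL CL.2, the SK-HEP-1 values resting on 3 and 40 reads of miR-99b*. miR-22 over miR-22* was at 1.28 and -7.98 in SK-HEP-1, where miR-22 had 2 reads in 4U, and at 3.77 and 4.63 in BNL CL.2. With 2 libraries a line these ratios were not tested.

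**Figure D5:**
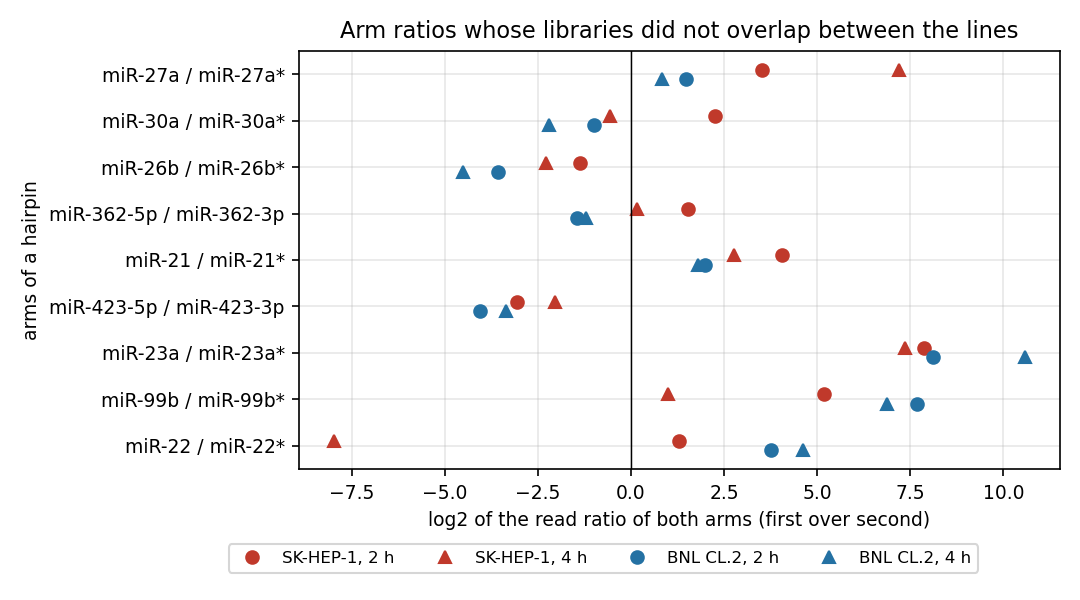
Log2 ratio of the reads of both arms of a hairpin (first named over second) for the 9 arm pairs that did not overlap between the lines, with 1 point per library (red for SK-HEP-1, blue for BNL CL.2). The vertical line marks equal reads, and miR-362 is the pair whose libraries fall on opposite sides of it by line.

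The same contrast was made in the 4 treated libraries of the 5500xl, which share no library with the untreated contrast. Of 127 miRNAs tested there, 59 (46.5%) passed edgeR's test, 37 higher in SK-HEP-1 and 22 higher in BNL CL.2. All 27 miRNAs called at baseline had the same direction in the treated libraries, and 24 of them were called again. The share with the same direction over all tested miRNAs is not given here, so the count of 27 stands without a background. The exceptions were miR-32, miR-17* and miR-21. miR-21 was at 40.9 and 4745 RPM in treated SK-HEP-1 and at 128 and 186 RPM in treated BNL CL.2, so the lines overlapped. The treated and untreated libraries of a line come from the same tables, so features of a table are shared by both contrasts.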

How the data were processed

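Small RNA was sequenced by the study on SOLiD instruments. The authors deposited counts, whole numbers of reads per known miRNA without normalization. The submitters' processing notes name cutadapt and Bowtie 0.12.7, and the allowed mismatches against miRBase are not given in the sources used here. All members, lists and tests were chosen with earlier results of these data known.

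Counts were divided by the miRNA total of the library to give RPM. The untreated lines were compared with edgeR 4.0.16 (R 4.3.3; quasi-likelihood test, miRNA totals as library sizes, normalization factors of 1, Benjamini-Hochberg adjustment over 128 miRNAs, threshold 0.05). The biological coefficient of variation was 0.779. Bounds against a line at 0 used 3 reads per library, and ratios resting on 2 reads have exact 95% intervals of pooled counts. Alternatives included DESeq2 1.42.0, TMM, other totals, other filters and each library left out. Named miRNAs were the 10 most abundant per line, the 10 largest called differences per direction with at least 100 RPM in the higher line, and members of 25 lists (185 hairpins). Others, such as miR-340, miR-362 and miR-22, were named after their values were seen. Positions are GRCh37 with the GENCODE annotation, and sequences are from RefSeq (GRCh38.p14). Renamed pairs were matched by hand from their miRBase names, and quality and miRBase-mapped reads per library are those the study lists. Python 3.11.15, numpy 2.4.6, pandas 2.3.3, scipy 1.17.1 and matplotlib 3.10.9 were used.

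The test was tried on simulated counts of 128 miRNAs, a single draw per setting, with the same biological coefficient of variation (0.779) for every miRNA. It made 0 calls with nothing changed (9 at an unadjusted p under 0.05), 4 calls, 3 true, with 40 miRNAs changed 8-fold, and 39 calls, 38 true, with 40 changed 32-fold. The mRNA libraries were not used here.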

Additional observations from a re-analysis of the deposited data

How the results depend on the processing

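Of 27 calls (18 higher in SK-HEP-1, 9 higher in BNL CL.2), TMM gave 16 (8 higher in SK-HEP-1), DESeq2's Wald test 51 (35 and 16), names in either table with a missing name set to 0 gave 186 (115 and 71), and a total without miR-103 and miR-125b, added after seeing the data, 17 (9 higher in SK-HEP-1). Scaling to the reads mapped to miRBase, also added, gave 39 (30 higher in SK-HEP-1). Calls higher in SK-HEP-1 were 11 with DESeq2 size factors, 11 with the name-matched total and 7 with quality reads, and calls higher in BNL CL.2 were 28 with quality reads and 17 with the SOLiD 3 libraries of SK-HEP-1. Leaving out 1 library gave 0 to 36 calls, 0 to 24 higher in SK-HEP-1 and 0 to 12 higher in BNL CL.2. It was 0 in edgeR without either SK-HEP-1 library (53 and 39 at an unadjusted p under 0.05), and the lone library was then assumed to vary like the other line. Of the 14 lists, 9 were higher in SK-HEP-1, 3 with quality reads and 7 to 9 with 1 library left out. The cause of these changes was not tested.

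The replicate numbers are the time points. Same-numbered samples share the harvest time, and no label says whether they were prepared together. The deviations of the time points correlated at -0.047 between the lines, which cannot settle this. The replicate block gave 30 calls. Of the 27, 26 were kept, and miR-328 was not called (edgeR adjusted p = 0.0744). Matching by identical mature sequence was not run, since the sequence table used here holds human miRNAs.

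Among named miRNAs the log2 difference reversed for miR-15b with TMM (-0.14), DESeq2 size factors (-0.17), quality reads (-1.61, edgeR adjusted p = 0.0419) and SOLiD 3 (-0.39). It reversed for miR-17 with TMM (-0.44), DESeq2 size factors (-0.44), quality reads (-1.88), the name-matched total (-0.12), the total without miR-103 and miR-125b (-0.14), without SK-HEP-1 replicate 2 (-0.43) and without BNL CL.2 replicate 2 (-0.29), with a range over left-out libraries of -0.43 to 0.50. It reversed for miR-29a with TMM (-0.10), DESeq2 size factors (-0.10), quality reads (-1.51) and without SK-HEP-1 replicate 2 (-0.66, with a range over left-out libraries up to 1.09). Among the 27 calls, 1 reversed, miR-17* with SOLiD 3 (0.40). In all 14 alternatives that kept 4 libraries and could test it, 12 calls held: let-7a-2*, miR-132*, miR-135b, miR-145, miR-218 and miR-29b higher in SK-HEP-1, and miR-181c, miR-182, miR-23a, miR-23b, miR-326 and miR-99b higher in BNL CL.2. miR-326 is not in the SOLiD 3 table. In the simulation, which gave every miRNA the same spread, most 8-fold changes were missed. miR-125a-5p, with a log2 difference of -3.04 and a smaller spread (SE 0.45), was called in the data.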

Other observations

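The 2 untreated SOLiD 3 libraries of SK-HEP-1, from another culture of the line, gave some levels far from those of the 5500xl libraries. miR-29b was at 231589 and 42810.0 RPM on the SOLiD 3 and at 49081 and 103955 RPM on the 5500xl. miR-100 was at 199516 and 119148 RPM against 83816 and 66604 RPM. miR-99b was at 0 and 2.45 RPM against 158 and 149.6 RPM, so its level in SK-HEP-1 was far below that of BNL CL.2 in all 4 libraries. miR-328 was at 0 and 4.89 RPM against 43.9 and 50.5 RPM, and miR-23b at 29.5 and 105 RPM against 408 and 273 RPM. For these last 3 the SOLiD 3 libraries lay farther from BNL CL.2 than the 5500xl libraries did.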
